A study of Mus musculus with 30 samples.

Results

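The effect of a flat, unpatterned gelatin hydrogel on the transcriptome of C2C12 myotubes was examined at day 7 of differentiation (D7), with plastic culture dishes as the comparison. All libraries labelled as C2C12, day 7 and either unpatterned or plastic were taken, which gave 6 of the 30 libraries of the series, 3 per substrate. C2C12 is an immortalised mouse myoblast line that fuses into multinucleated myotubes once serum is withdrawn. Myoblasts kept on plastic were replated either onto a fresh plastic dish or onto porcine gelatin that had been set under a flat silicone stamp and crosslinked with microbial transglutaminase, grown to confluence and moved to horse serum medium for 7 days. Both groups were the same line, received the same media, were exposed briefly to trypsin to enrich for myotubes, and were lysed in Trizol for NEBNext libraries. The study made 3 separate cultures per condition, and the labels do not say which batch of the line the cultures came from. The remaining C2C12 libraries were day 0 myoblasts, the same substrates at day 4 and gelatin molded with grooves (patterned) at both days.

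A culture surface acts on a myotube through what the cell can adhere to and how stiff that anchor is. Cells short of oxygen stabilise hypoxia-inducible factors, which switch on genes for pH regulation, glycolysis and mitophagy, and NF-kB, a transcription factor held in the cytoplasm by inhibitors such as the product of Nfkbia, drives chemokine genes in muscle cells as in many others. Gelatin is denatured collagen, the main fibrous protein around muscle fibres, and its integrin contacts feed into focal adhesion and YAP/TAZ signalling. These pathways, the sarcomere and the metabolic systems of muscle guided the gene lists described here.

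The 6 libraries held 22676932 to 31457757 estimated counts each, and between 17552 and 17916 genes had a count in each. Mitochondrial transcripts made up 2.72% to 4.02% of the counts on plastic and 2.16% to 4.14% on gelatin. The spread between replicates was wider than at day 4, with a biological coefficient of variation (the relative spread of a gene between cultures) of 0.136 on plastic and 0.124 on unpatterned gelatin at day 7 against 0.0605 and 0.0797 at day 4. The first principal component of the 6 libraries held 36.3% of the variance and placed all plastic libraries on one side and all gelatin libraries on the other. All 12 myotube markers were detected in every library, which matches the labelled cell type. Their summed level was 36110, 50000 and 49470 CPM (counts per 1000000 counts of the library, scaled with TMM factors) on plastic and 31490, 30170 and 29800 CPM on gelatin. The groups did not overlap, and Ttn alone made up 1.34% to 1.61% of all counts on gelatin and 2.01% to 3.43% on plastic. Without Ttn the sum was 15920, 15350 and 20570 CPM on plastic and 15170, 16830 and 15730 CPM on gelatin, and the groups overlapped.

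Promoter sequences of 4 genes that were higher on gelatin are shown because they carry the letters of elements that the hypoxia-inducible factors and NF-kB are known to bind. They were chosen for these matches, and the windows of Apln and Car12, which were also higher hypoxia genes, held neither ACGTG nor GCGTG. Nos2, Ero1l, Ccl2, Ccl7, Cxcl5 and Cxcl16 had no window. The sequences are RefSeq windows of GRCm38.p6 that run from 250 bases before to 50 bases after an annotated start, printed 5′ to 3′ on the strand of the gene. Capitals mark matches, on either strand, to ACGTG or GCGTG, the core letters of a hypoxia response element, and to the kappaB motif of NF-kB, a run of G, 2 free bases and a run of T and C, whose letters can be read in the Cxcl1 and Nfkbia sequences. Car9, carbonic anhydrase 9 (chr4:43506776-43507075, plus strand), held ACGTG once, on the opposite strand 18 bases before the start. Bnip3, a mitophagy receptor (chr7:138909457-138909756, minus strand), held ACGTG on both strands at 108 and 107 bases before the start, which overlap in the palindrome CACGTG, also known as an E-box, and GCGTG 3 times. Cxcl1, a neutrophil chemokine (chr5:90890995-90891294, plus strand), held ACGTG once and the kappaB motif at 89 and 71 bases before the start. Nfkbia, the NF-kB inhibitor (chr12:55492598-55492897, minus strand), held the kappaB motif once, 29 bases before the start.
Car9: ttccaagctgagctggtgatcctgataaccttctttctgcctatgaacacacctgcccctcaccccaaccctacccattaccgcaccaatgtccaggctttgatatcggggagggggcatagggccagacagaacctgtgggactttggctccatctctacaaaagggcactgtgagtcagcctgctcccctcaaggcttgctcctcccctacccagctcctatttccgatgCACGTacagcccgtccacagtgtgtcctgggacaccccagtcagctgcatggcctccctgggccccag
Bnip3: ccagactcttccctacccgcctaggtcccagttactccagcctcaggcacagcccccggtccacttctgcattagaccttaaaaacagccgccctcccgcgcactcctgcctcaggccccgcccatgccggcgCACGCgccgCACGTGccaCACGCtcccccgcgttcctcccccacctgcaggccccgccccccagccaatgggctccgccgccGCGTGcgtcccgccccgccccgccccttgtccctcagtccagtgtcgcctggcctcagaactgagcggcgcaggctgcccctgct
Cxcl1: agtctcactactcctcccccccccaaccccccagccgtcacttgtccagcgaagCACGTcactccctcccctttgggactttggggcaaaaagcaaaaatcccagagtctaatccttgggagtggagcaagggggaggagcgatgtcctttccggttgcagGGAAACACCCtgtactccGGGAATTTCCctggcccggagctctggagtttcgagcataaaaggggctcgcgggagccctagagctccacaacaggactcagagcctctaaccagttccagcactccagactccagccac
Nfkbia: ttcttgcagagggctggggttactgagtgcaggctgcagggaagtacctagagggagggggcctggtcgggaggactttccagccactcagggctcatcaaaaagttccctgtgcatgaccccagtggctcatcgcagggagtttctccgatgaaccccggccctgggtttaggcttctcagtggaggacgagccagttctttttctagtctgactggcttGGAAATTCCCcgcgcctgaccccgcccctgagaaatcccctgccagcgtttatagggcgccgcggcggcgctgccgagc

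Among 27 higher genes with a window, the kappaB motif occurred in 5 (Cxcl1, Nfkbia, Steap4 and the neighbours Tmem176a and Tmem176b, whose overlapping windows share 1 match), or 18.5% of genes, against 2.02% of the 10471 tested genes with a window. ACGTG occurred in 37.0% of the higher genes and 28.7% of tested genes, and GCGTG in 40.7% and 54.8%. Of the 4 higher hypoxia genes with a window, 2 held ACGTG and 1 held GCGTG, against 14 and 15 of the 20 tested hypoxia genes with a window. Over all 32851 windows of this length, 19.6% held ACGTG, 32.4% GCGTG and 1.63% the kappaB motif. Of 12 lower genes with a window, 1 held ACGTG, 7 held GCGTG and none held the kappaB motif. No test was made of these shares, and a match describes letters in the window and not binding.

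At day 7, 43 genes were higher and 27 lower on unpatterned gelatin than on plastic at an adjusted p below 0.05 (edgeR quasi-likelihood test, Benjamini-Hochberg over 14074 genes), which is 0.306% and 0.192% of the genes tested and 0.497% together. The genes with the largest increases were Nos2, C3, Car9, Steap4, Apln and Sprr1a, and the largest decreases were those of 3 predicted genes, Gm20775, Gm42936 and Gm14440. The median log2 difference in size was 1.24 for the higher genes and 0.84 for the lower ones, while the median over all genes tested was 0.00. At an unadjusted p below 0.05 there were 2240 genes, or 15.9%. All 70 genes had groups that did not overlap, as did 12.6% of tested genes in the higher direction and 9.54% in the lower one. The count changed when a single library was left out, and each such fit also has 1 library fewer and so less power. Without plastic replicate 1, 2 or 3 the test called 15, 22 and 41 genes higher and 12, 9 and 27 lower, and without unpatterned replicate 1, 2 or 3 it called 18, 13 and 14 higher and 17, 4 and 7 lower. In all 6 of these fits 12 higher genes passed (Car9, Apln, Nos2, Ak4, Ccl2, Cxcl5, Cxcl16, C3, Postn, Ero1l, Tppp3 and Rnaset2a) and 3 lower genes (Sned1, Gm14440 and Gm42936), and 20 of the 70 passed in none of them. When the spread was estimated over all 21 C2C12 libraries, 369 genes were higher (2.48%) and 145 lower (0.976%), including 42 of the 43 and 15 of the 27. That fit takes in day 4 libraries, which spread less, so it can understate the error at day 7 here and wherever it is given below. With the 9 C2C12 libraries of day 7 in the fit, which include the widely spread patterned group, 19 of the 43 and 3 of the 27 passed.

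**Figure D1:**
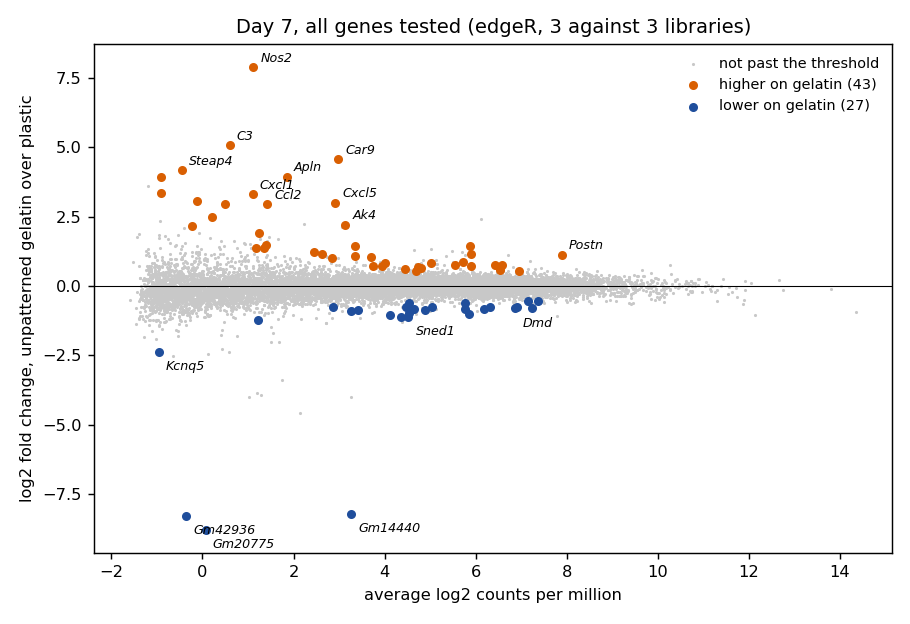
Log2 fold change of unpatterned gelatin over plastic at day 7 against the average log2 CPM, one point per gene tested, with the 43 higher genes in orange and the 27 lower genes in blue. Most higher genes with large changes lie at low levels, and the 3 points near the bottom are Gm14440, Gm42936 and Gm20775, whose fitted folds rest on counts at or near 0 on gelatin.

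The hypoxia response was the list with the most members past the threshold. Of its 28 genes, 27 were tested, 6 were higher (Car9, Apln, Nos2, Ero1l, Bnip3 and Car12) and none was lower. Over all tested genes 0.306% were higher. All 27 had a log2 fold change above 0, with a median of 0.44 against 0.00 over all genes. Gelatin lay wholly above plastic for 21 of them, where it did for 12.6% of all tested genes. With the spread estimated over all 21 libraries 13 of the 27 were higher, where 2.48% of all genes were, and 4 to 8 were higher when 1 library was left out. The summed level of the list was 1277 to 1352 CPM on plastic and 1727 to 1815 CPM on gelatin.

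Car9 (chr4:43506966-43513729), a membrane carbonic anhydrase that exports acid and a standard hypoxia marker, was at 0.580, 0.761 and 0.542 CPM on plastic and at 17.9, 12.4 and 15.3 CPM on gelatin. Every gelatin library stood far above every plastic library, by a log2 fold change of 4.58 ± 0.21 (SE, n = 3 per group, edgeR adjusted p = 2.2e-05). Per transcript length its mean level rose from 0.669 to 16.4 TPM, a share of transcripts corrected for their length. Apln, which encodes the secreted peptide apelin, was at 0.268, 0.457 and 0.542 CPM on plastic and 7.35, 5.86 and 6.89 CPM on gelatin, again without overlap, a log2 fold change of 3.94 ± 0.25 (adjusted p = 0.000189). Nos2, the inducible nitric oxide synthase, which both hypoxia and NF-kB are known to induce, had 1 estimated count over the 3 plastic libraries and 347 over the 3 gelatin libraries. In CPM the gelatin libraries were at 6.05, 2.75 and 3.75. The ratio of the counts, corrected for library size, was 336 with a 95% interval of 59.85 to 13300 that covers counting error only, and the edgeR adjusted p was 0.00158.

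Ero1l, an oxidase of disulfide bond formation in the endoplasmic reticulum, was at 33.3, 31.2 and 31.4 CPM on plastic and at 112, 73.5 and 74.4 CPM on gelatin. The log2 fold change was 1.43 ± 0.16 (adjusted p = 0.00565) and the lowest gelatin library stood well above the highest plastic one. Bnip3, the mitophagy receptor whose promoter is printed here, was at 78.5, 64.1 and 73.1 CPM on plastic and 130, 121 and 119 CPM on gelatin. This smaller difference, 0.77 ± 0.10, was also free of overlap (adjusted p = 0.016, and 0.0315 to 0.0542 when 1 library was left out). Car12, another membrane carbonic anhydrase, was at 0.268, 0.533 and 0.102 CPM on plastic and 2.85, 1.67 and 2.59 CPM on gelatin (log2 fold change 2.97 ± 0.45, adjusted p = 0.0287, passing in 2 of the 6 fits with a library left out, with a largest adjusted p of 0.109).

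Other hypoxia genes had smaller differences that did not pass the test. Slc2a1, the glucose transporter GLUT1, was at 49.6, 51.4 and 59.0 CPM on plastic and 70.3, 76.8 and 73.9 CPM on gelatin (log2 fold change 0.46, adjusted p = 0.0768). Pdk1, a kinase that inhibits pyruvate dehydrogenase, had 0.39 (adjusted p = 0.126). For Ankrd37 the value was 0.93 (adjusted p = 0.143). Vegfa, the angiogenic growth factor often used as a hypoxia readout, was at 115, 120 and 134 CPM on plastic and 129, 118 and 129 CPM on gelatin. Its groups overlapped and its log2 fold change was 0.02 ± 0.09 (adjusted p = 0.946). With the spread over all 21 libraries, Slc2a1, Pdk1 and Ankrd37 passed (adjusted p = 0.00377, 0.00539 and 0.00961) and Vegfa did not (adjusted p = 0.927).

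Ak4 and Mgarp, genes of mitochondria and energy metabolism outside that list, were also higher. Ak4, an adenylate kinase of the mitochondrial matrix, was at 4.38, 2.59 and 2.44 CPM on plastic and 15.0, 14.3 and 14.1 CPM on gelatin, a log2 fold change of 2.21 ± 0.21 (adjusted p = 0.0035). Mgarp, which encodes a mitochondrial membrane protein, was at 1.61, 1.52 and 0.982 CPM on plastic and 3.82, 4.26 and 3.31 CPM on gelatin (1.47 ± 0.25, adjusted p = 0.0413, not past the threshold in any fit with a library left out, with adjusted p from 0.0526 to 0.133). The glycolysis list had no gene past the threshold. Of its 23 members 18 were above 0, with a median of 0.10. Groups did not overlap for 9, all higher on gelatin, against 12.6% of all tested genes. With the spread over all 21 libraries 5 passed, where 2.48% of all genes were higher. Aldoc, an aldolase isoform, had the largest value of this list at 1.06 (adjusted p = 0.164), while Hk2 and Ldha were at 0.05 and 0.09. Glycogen genes had a median of -0.01 over 13 tested, and none passed.

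**Figure D2:**
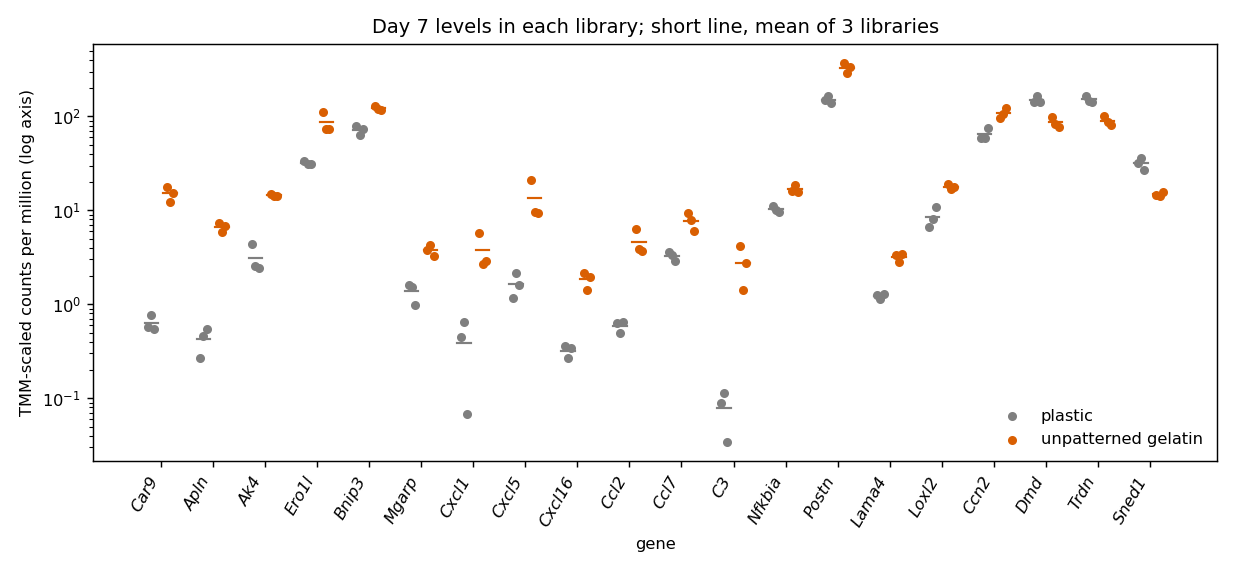
Level of 20 genes in each of the 6 libraries at day 7, in TMM-scaled CPM on a log axis, with plastic in grey, unpatterned gelatin in orange and a short line at each mean of 3 libraries. For every gene shown the gelatin points lie wholly above the plastic points, except Dmd, Trdn and Sned1, where they lie wholly below.

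Chemokine genes formed the next group. Of 28 chemokines and cytokines 21 were tested, and 5 were higher (Ccl2, Cxcl5, Cxcl16, Ccl7 and Cxcl1) with none lower, while the list median was only 0.15 and 9 members were below 0. The share higher over all tested genes was 0.306%. The 7 not tested were Cxcl2, Cxcl10, Ccl5, Ccl20, Csf2, Csf3 and Tnf, which were too low in these libraries. The number called was 3 or 4 when 1 library was left out and 5 with the spread over all 21 libraries. In the latter fit 2.48% of all genes were higher.

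Ccl2, which attracts monocytes, was at 0.625, 0.495 and 0.644 CPM on plastic and 6.34, 3.86 and 3.68 CPM on gelatin (log2 fold change 2.96 ± 0.29, adjusted p = 0.00411). Its neighbour on chromosome 11, Ccl7, was at 3.57, 3.35 and 2.88 CPM on plastic and 9.33, 7.81 and 6.10 CPM on gelatin (1.24 ± 0.19, adjusted p = 0.034, and 0.0349 to 0.0963 with a library left out). Both kept their groups apart, and in both genes unpatterned replicate 1 was the highest library. Cxcl5 and Cxcl1, neighbouring chemokine genes on chromosome 5 whose products attract neutrophils, had the same highest library. Cxcl5 was at 1.16, 2.17 and 1.59 CPM on plastic and 21.2, 9.72 and 9.34 CPM on gelatin (3.01 ± 0.36, adjusted p = 0.00888), and Cxcl1 at 0.446, 0.647 and 0.0677 CPM on plastic and 5.77, 2.67 and 2.90 CPM on gelatin (3.30 ± 0.54, adjusted p = 0.0389, and 0.0299 to 0.0919 with a library left out). Cxcl16, a membrane-bound chemokine, was at 0.357, 0.266 and 0.339 CPM on plastic and 2.16, 1.43 and 1.94 CPM on gelatin (2.51 ± 0.30, adjusted p = 0.00888). Il6, the interleukin that muscle secretes, was at 0.402, 0.533 and 0.440 CPM on plastic and 1.51, 1.12 and 1.13 CPM on gelatin, which did not pass (1.43 ± 0.29, adjusted p = 0.0742, and adjusted p = 0.143 with the spread over all 21 libraries).

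Among 18 tested genes of NF-kB feedback and its other targets, C3 and Nfkbia were higher and none was lower, and the list median was 0.25 with 15 members above 0. Of all tested genes 0.306% were higher. C3, the central complement component, was near the floor on plastic at 0.0893, 0.114 and 0.0339 CPM and at 4.14, 1.43 and 2.76 CPM on gelatin, a log2 fold change of 5.09 ± 0.56 (adjusted p = 0.00565). Nfkbia was at 11.03, 10.2 and 9.65 CPM on plastic and 16.2, 18.6 and 15.8 CPM on gelatin (0.71 ± 0.12, adjusted p = 0.0453, not past the threshold with any library left out, adjusted p 0.0742 to 0.133). The transcription factor subunits Nfkb1, Nfkb2 and Relb had values of 0.05, 0.22 and 0.27, and none passed. The interferon response had no gene past the threshold among 17 tested, with a median of 0.10, 10 members above 0 and 7 below.

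Few genes of the extracellular matrix passed the test, by which 0.306% of all tested genes were higher and 0.192% lower. Of 32 tested glycoproteins and proteoglycans, Postn and Lama4 were higher and none was lower, with a median of 0.10. Postn, which encodes periostin, a matricellular protein that binds collagen, was at 149, 165 and 137 CPM on plastic and 371, 287 and 335 CPM on gelatin (1.13 ± 0.12, adjusted p = 0.00565). Lama4, a laminin chain of basement membranes, was at 1.25, 1.14 and 1.29 CPM on plastic and 3.39, 2.83 and 3.41 CPM on gelatin (1.38 ± 0.20, adjusted p = 0.0272, past the threshold in 1 of the 6 fits with a library left out, adjusted p up to 0.115). Collagen genes did not pass. Of 25 tested 13 were above and 12 below 0, with a median of 0.01. The groups lay apart for 9, with 6 higher and 3 lower on gelatin, against 12.6% and 9.54% of all tested genes. The abundant fibrillar Col3a1 was at 910, 1191 and 693 CPM on plastic and 1477, 1734 and 1520 CPM on gelatin, without overlap (0.75 ± 0.19, adjusted p = 0.129). With the spread over all 21 libraries Col3a1, Col5a3 and Col14a1 were higher (adjusted p = 0.0465, 0.0445 and 0.047), where 2.48% of all genes were. Col1a1 was at 62.6, 143 and 147 CPM on plastic and 132, 166 and 202 CPM on gelatin, which overlapped (0.50 ± 0.28, adjusted p = 0.408). Among 13 genes of matrix crosslinking and collagen maturation, all of which were above 0 with a median of 0.24, Loxl2 was higher. This lysyl oxidase, which crosslinks collagen, was at 6.70, 8.10 and 10.97 CPM on plastic and 18.9, 16.9 and 17.7 CPM on gelatin (1.04 ± 0.16, adjusted p = 0.034, and 0.00572 to 0.11 with a library left out). Metalloproteases and their inhibitors, 21 tested with a median of 0.25, and integrins and focal adhesion genes, 29 tested with a median of 0.02, had none past the threshold.

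Readouts of mechanical signalling gave 1 gene. Of 21 YAP/TAZ targets Ccn2 was higher, as were 0.306% of all tested genes. This connective tissue growth factor gene was at 58.9, 59.5 and 75.7 CPM on plastic and 97.3, 107 and 124 CPM on gelatin (0.75 ± 0.12, adjusted p = 0.0389), but its adjusted p was 0.0215 to 0.136 with a library left out and 0.198 with the spread over all 21 libraries. Of the 21, 16 were above 0, with a median of 0.17, and 6 had gelatin libraries wholly above plastic, as did 12.6% of all tested genes. Igfbp3, a binding protein of insulin-like growth factors, was at 2.37, 3.58 and 2.24 CPM on plastic and 6.42, 4.42 and 5.90 CPM on gelatin, which did not pass (1.02 ± 0.23, adjusted p = 0.0928) and was the single target past the threshold with the spread over all 21 libraries (adjusted p = 0.00388). Ankrd1 overlapped between groups with -0.23 (adjusted p = 0.467) and Ccn1 had 0.02 (adjusted p = 0.947). Genes of the contractile cytoskeleton under SRF had a median of 0.17 over 24 tested and none past the threshold, with Acta2, smooth muscle actin, at 0.26 (adjusted p = 0.338) and Tagln at 0.70 (adjusted p = 0.0676). Among 23 immediate early genes 20 were above 0, and 11 had gelatin libraries wholly above plastic, against 12.6% of all tested genes. Ier3, an early response gene of cell survival, passed. It was at 11.8, 11.7 and 11.96 CPM on plastic and 18.4, 20.1 and 19.9 CPM on gelatin (0.71 ± 0.10, adjusted p = 0.0239, and 0.0379 to 0.11 with a library left out).

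**Figure D3:**
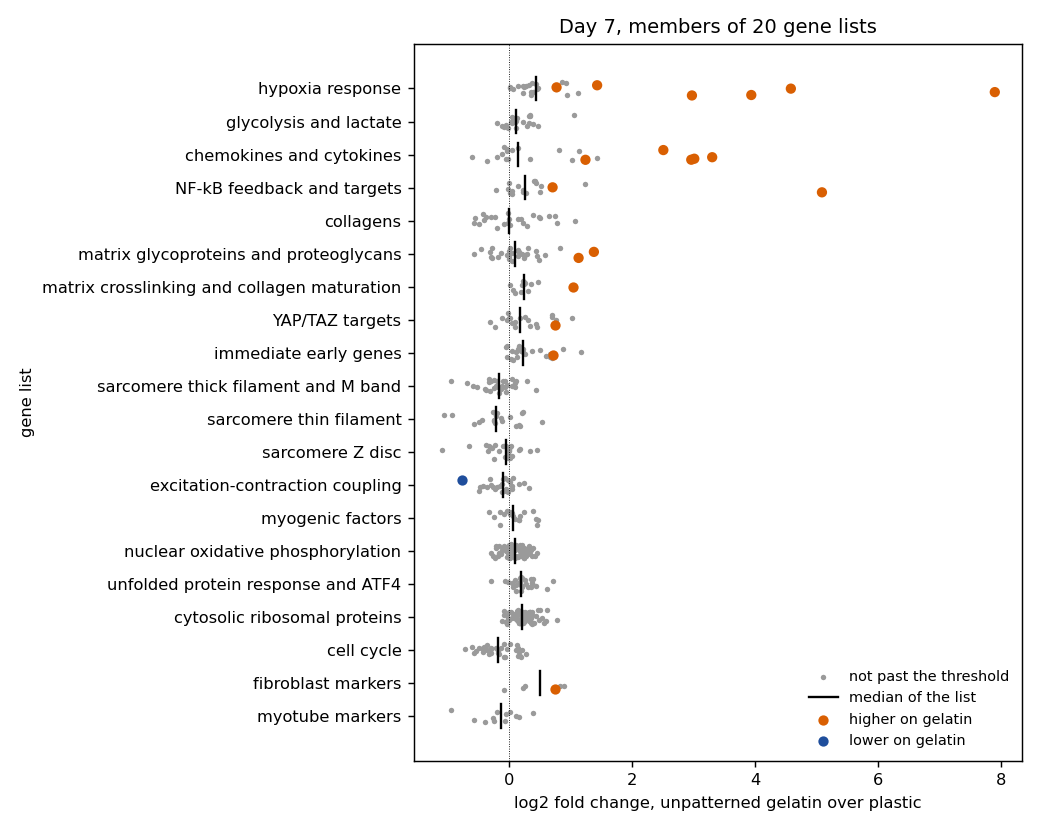
Log2 fold change of unpatterned gelatin over plastic for the tested members of 20 gene lists, with members past the threshold in orange (higher) or blue (lower), the rest in grey and the list median as a black bar. The 27 hypoxia response genes all lie above 0, the 5 chemokines past the threshold lie between 1.24 and 3.30, a range that also holds Il6 at 1.43, and the sarcomere lists have no coloured point.

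No sarcomere gene passed the edgeR test of the 6 libraries. In the thick filament and M band list 23 of 30 genes were below 0, with a median of -0.17, in the thin filament list 14 of 21 with a median of -0.21, and in the Z disc list 19 of 28 with a median of -0.05. The lowest value of each list was that of a long transcript. Ttn, the giant spring of the sarcomere, was at 20192, 34642 and 28903 CPM on plastic and 16319, 13341 and 14073 CPM on gelatin, so the groups did not overlap (-0.94 ± 0.22, adjusted p = 0.102). Neb, the thin filament ruler nebulin, had -1.05 ± 0.22 (adjusted p = 0.0797) and Igfn1, a Z disc protein, -1.10 ± 0.21 (adjusted p = 0.0615). The groups lay apart for 6, 7 and 4 genes of the 3 lists, lower on gelatin in each case, where 9.54% of all tested genes were. They included the shorter troponin gene Tnnt3, at 1411, 1110 and 1549 CPM on plastic and 964, 903 and 873 CPM on gelatin (-0.58 ± 0.14, adjusted p = 0.11). With the spread over all 21 libraries Igfn1, Myh6 and Myh1 were lower (adjusted p = 0.00148, 0.0203 and 0.0295), where 0.976% of all genes were in that fit. DESeq2 called 4, 3 and 2 genes of these lists lower. Its count of lower genes over all genes, given with the processing below, was also larger than that of edgeR. The share of all genes that DESeq2 called lower was not worked out, so its counts in these lists cannot be weighed against it. Other sarcomere genes overlapped between the substrates. Actn2, the Z disc crosslinker, had 0.01 (adjusted p = 0.959), Acta1, skeletal actin, 0.11 (adjusted p = 0.736), and Myh4, a fast adult myosin, 0.09 (adjusted p = 0.866). Embryonic myosin, Myh3, was at 3186, 3304 and 5297 CPM on plastic and 3023, 3110 and 2828 CPM on gelatin, a small gap without overlap (-0.40, adjusted p = 0.343). The myogenic factors gave none past the threshold among 19 tested, with Myog at 0.17 (adjusted p = 0.592).

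Dmd and Trdn, genes of the muscle membrane systems, were lower. Dmd, which encodes dystrophin, the link between the cytoskeleton and the matrix, was at 143, 167 and 142 CPM on plastic and 99.2, 82.3 and 77.3 CPM on gelatin (-0.81 ± 0.12, adjusted p = 0.0272). Trdn, triadin, the junctional protein that anchors calsequestrin to the ryanodine receptor, was at 166, 145 and 144 CPM on plastic and 102, 86.6 and 81.3 CPM on gelatin (-0.76 ± 0.11, adjusted p = 0.0276). Neither overlapped between groups. Each passed in 2 of the 6 fits with a library left out, with adjusted p up to 0.11 for Dmd and 0.115 for Trdn, and neither passed with the spread over all 21 libraries (adjusted p = 0.203 and 0.272). Trdn was the only member past the threshold among 27 tested genes of excitation-contraction coupling, of which 20 were below 0 with a median of -0.10. Of all tested genes 0.192% were lower. No tested creatine kinase gene passed. Ckm had -0.24 (adjusted p = 0.408) and Ckb -0.09 (adjusted p = 0.879), and both overlapped between groups. The mitochondrial form Ckmt2, at 3.84, 5.33 and 3.45 CPM on plastic and 8.47, 10.7 and 7.77 CPM on gelatin, had 1.09 ± 0.20 (adjusted p = 0.0597).

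Fold change varied with transcript length. The median log2 fold change was 0.03 for the 1258 genes with transcripts up to 1000 bases, 0.05 up to 2000, 0.00 up to 4000, -0.04 up to 8000 and -0.18 for the 447 genes above that. Over 14074 genes Spearman's rho of the 2 quantities was -0.148, given as a description because genes share the same 6 libraries. Genes above 8000 bases took 10.2% to 13.6% of the counts of tested genes on plastic and 8.46% to 9.85% on gelatin. Of the 447 genes in this class 4 were lower and none higher, against 0.192% lower and 0.306% higher over all tested genes. When the trend of counts on length was removed in each library, 103 genes were higher (0.732%) and 56 lower (0.398%), and these included all 43 and all 27. In that fit Dmd had -0.61 (adjusted p = 0.0346), Neb -0.78 (adjusted p = 0.0878) and Ttn -0.26 (adjusted p = 0.474). The part of transcript length or RNA quality in these differences was not tested.

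**Figure D4:**
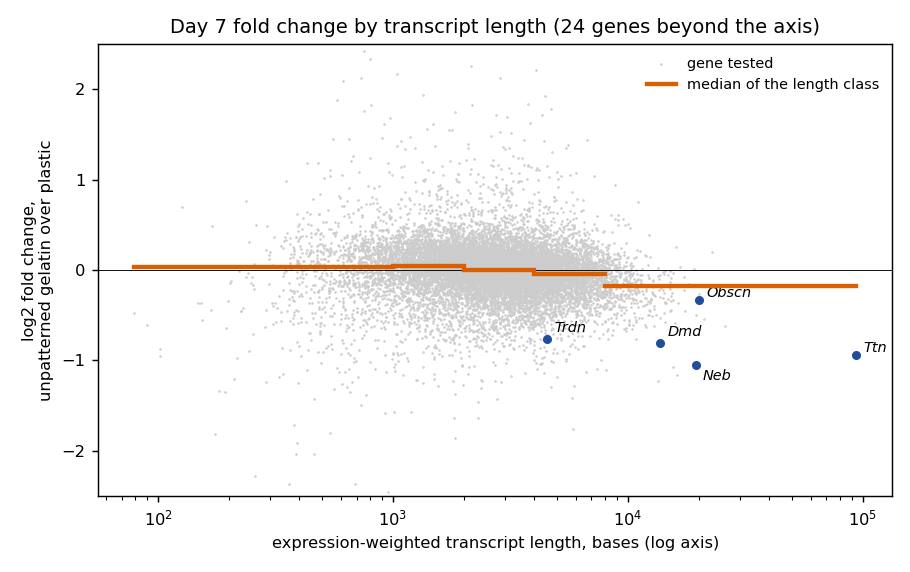
Log2 fold change of unpatterned gelatin over plastic at day 7 against transcript length in bases on a log axis, one grey point per gene tested, with the median of each of 5 length classes as an orange bar. The median falls from 0.05 for transcripts of 1000 to 2000 bases to -0.18 above 8000 bases, and 24 genes with log2 fold changes beyond 2.5 lie outside the axis.

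The remaining lower genes were named or predicted ones. Named protein-coding genes were led by Sned1, which encodes a secreted matrix protein. It was at 31.8, 36.1 and 27.1 CPM on plastic and 14.7, 14.3 and 15.5 CPM on gelatin (-1.10 ± 0.13, adjusted p = 0.0069), with no overlap. Fam107a, an actin-associated stress gene, had -1.03 ± 0.15 (adjusted p = 0.0239), Lctl, a klotho family glycosidase, -0.85 ± 0.12 (adjusted p = 0.0239), and Lgr6, a receptor for R-spondins that enhance Wnt signalling, -0.84 ± 0.14 (adjusted p = 0.0434). Onecut2, a homeobox transcription factor, was at 3.35, 3.20 and 3.18 CPM on plastic and 1.69, 1.12 and 1.36 CPM on gelatin (-1.22 ± 0.22, adjusted p = 0.048). Of these, Fam107a passed in 3 of the 6 fits with a library left out, Lctl in 2, Lgr6 in 1 and Onecut2 in none, and their largest adjusted p in those fits were 0.0897, 0.11, 0.15 and 0.193.

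Predicted or unnamed genes made up 12 of the 27 lower genes and 1 of the 43 higher genes, where they were 7.28% of the genes tested. Several are pseudogenes or members of families with near-identical copies, and estimated counts can be split between such copies, so their values are uncertain. Gm14440, in a cluster of zinc finger genes on chromosome 2, was at 8.39, 23.9 and 25.4 CPM on plastic and at 0, 0 and 0.170 CPM on gelatin (adjusted p = 0.00169). Gm42936, which overlaps D5Ertd579e and Tbc1d14, had 114 estimated counts over the plastic libraries and 0 on gelatin, which makes it at least 39.3-fold lower at a floor of 3 counts over the group. Gm20775, a pseudogene on chromosome Y, had 155 and 0, which makes it at least 53.4-fold lower. The adjacent pseudogenes Gm17132 and Gm17131 lie inside Tmem132d, and both were lower (-1.01 and -0.78). Of the 12, only Gm14440, Gm20775 and Gm21962 passed with the spread over all 21 libraries.

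Further higher genes encoded proteins of several kinds. Tmem176b and Tmem176a, overlapping neighbours on opposite strands of chromosome 6 that reads without strand could not tell apart where they overlap, had 1.93 ± 0.27 and 2.17 ± 0.36 (adjusted p = 0.0239 and 0.0397). Vwa1, a matrix protein of basement membranes, was at 5.45, 7.65 and 3.45 CPM on plastic and 15.4, 15.3 and 14.2 CPM on gelatin (1.43 ± 0.24, adjusted p = 0.0413). Steap4, a metalloreductase, was near the floor on plastic at 0.179, 0.0381 and 0 CPM and at 1.87, 1.04 and 0.852 CPM on gelatin (adjusted p = 0.0389). Tppp3, which binds tubulin, was at 40.4, 41.4 and 31.4 CPM on plastic and 79.2, 87.8 and 84.7 CPM on gelatin (1.15 ± 0.12, adjusted p = 0.00565), and Rnaset2a, a ribonuclease gene with a close paralogue that makes its count uncertain, had 0.87 ± 0.10 (adjusted p = 0.00565). Tmem176b passed in 3 of the 6 fits with a library left out, Vwa1 in 2, Steap4 in 1 and Tmem176a in none, with largest adjusted p of 0.0882, 0.122, 0.0992 and 0.133.

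Lists of general metabolism, stress and growth had no member past the threshold. Cytosolic ribosomal protein genes stood above 0 in 65 of 74 tested, with a median of 0.21. In 24 the gelatin libraries lay wholly above plastic, against 12.6% of all tested genes. Ribosomal protein transcripts took 1.70% to 2.12% of counts on plastic and 2.04% to 2.55% on gelatin, ranges that overlapped. Nuclear genes of oxidative phosphorylation had a median of 0.10 over 76 tested and the 13 protein genes of the mitochondrial genome -0.12. The unfolded protein response had 24 of 27 above 0 with a median of 0.19, cell cycle genes 24 of 34 below 0 with a median of -0.18, sterol synthesis 18 of 24 below 0 with a median of -0.12, and Notch genes 11 of 14 above 0 with a median of 0.30. The TCA cycle, fatty acid oxidation, heat shock and oxidative stress lists had medians of 0.02, 0.07, 0.03 and 0.10. The metallothionein genes Mt1 and Mt2, which bind metal ions, did not pass but kept their groups apart. Mt2 was at 40.6, 45.7 and 12.7 CPM on plastic and 95.4, 85.6 and 91.8 CPM on gelatin (1.45 ± 0.36, adjusted p = 0.126). Without plastic replicate 3, the lowest library, its difference was 1.06 (adjusted p = 0.00546). Mt2 was not called in every fit with a library left out. Across those fits, 0 to 2 genes of the atrophy and autophagy list, which holds Mt1 and Mt2, were called higher. Mt1 had 1.11 ± 0.33 (adjusted p = 0.167), and with the spread over all 21 libraries both were higher (adjusted p = 0.0177 for Mt1 and 0.00514 for Mt2).

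Markers of other cells were read beside these results. Of 10 fibroblast markers 6 were tested, and Ly6a was higher at 73.3, 71.8 and 81.5 CPM against 50.3, 45.1 and 39.6 CPM on plastic (0.74 ± 0.11, adjusted p = 0.0287, and 0.0343 to 0.115 with a library left out). The summed level of the 10 was 148, 132 and 87.0 CPM on plastic and 227, 173 and 216 CPM on gelatin, without overlap, and came mainly from Dcn and Ly6a. Pdgfra had 0.23 (adjusted p = 0.467), and Thy1, Dpt, Lum and Tcf21 were too low to test. Macrophage markers summed to 4.03 to 6.47 CPM on plastic and 4.54 to 5.70 CPM on gelatin, endothelial markers to 7.05 to 9.09 and 6.44 to 10.2 CPM, and adipocyte markers to 9.13 to 10.5 and 7.71 to 8.01 CPM. The part of the fibroblast markers in the matrix and chemokine differences was not tested, and in such bulk libraries fewer cells of a type cannot be told apart from less RNA per cell.

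The same contrast could be read at day 4 in 6 other libraries, which were fitted on their own. Of the 43 genes higher at day 7, 42 were tested there, all 42 had the same sign and 38 were called higher, where 11.6% of all genes were. Of the 27 lower genes 25 were tested, 24 had the same sign and 17 were called lower, where 11.8% of all genes were. None was called in the opposite direction. These counts cover only genes called at day 7, and whole lists differed at day 4. Of 27 hypoxia genes 16 were called higher and 0 lower. Collagen genes went the other way, with 0 called higher and 9 lower of 25. Of 32 glycoproteins and proteoglycans 4 were higher and 15 lower, and of 13 genes of matrix crosslinking 1 was higher and 3 were lower. Car9 was at 0.645 ± 0.290 CPM on plastic and 9.76 ± 2.10 CPM on gelatin at day 4 (SD, n = 3), a log2 fold change of 3.97 against 4.58 at day 7. Cxcl1 had 3.85 at day 4 and C3 7.26, against 3.30 and 5.09 at day 7. Dmd, with a smaller difference, had -0.16 (adjusted p = 0.365) and Trdn -0.33 (adjusted p = 0.109) at day 4, when both were at lower levels, with 45.8 and 52.6 CPM on plastic. Lama4 had 0.51 (adjusted p = 0.176), and Sdc1, a syndecan of the cell surface, had 0.02 (adjusted p = 0.81) at day 4 against 0.55 at day 7.

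**Figure D5:**
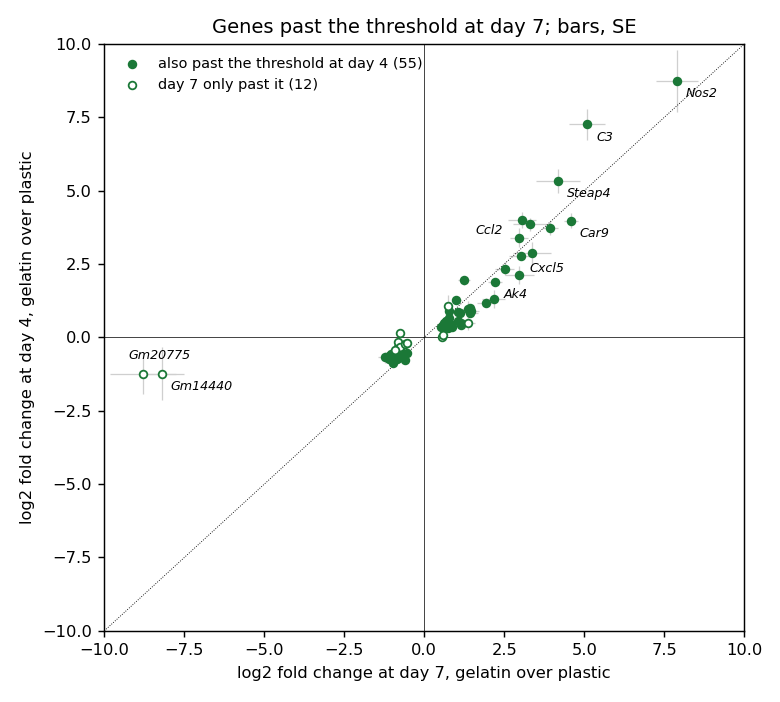
Log2 fold change of unpatterned gelatin over plastic at day 7 (horizontal) and at day 4 (vertical) for the 67 genes past the threshold at day 7 that were tested at day 4, with standard errors as bars. Filled points also passed at day 4 (55 genes), open points did not (12 genes), and the fitted folds of Gm14440, Gm20775 and Nos2 rest on counts near 0 in one group.

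When the difference of the effect between days 7 and 4 was tested directly in 12 libraries, 1 of 14369 genes passed, or 0.00696%, and 1933 (13.5%) had an unadjusted p below 0.05. For the 70 genes called at day 7 the smallest adjusted p of this difference was 0.200, and Dmd, Trdn, Lama4 and Sdc1 were not among those that passed. Its unadjusted p was below 0.05 for 13 of the 43 higher and 13 of the 27 lower genes. They were chosen by their day 7 values, which enter the difference, so these shares cannot be weighed against that of all genes. The gene that passed, Gm20594, is a short predicted gene of 334 bases on chromosome 6, and its counts are uncertain. It was at 9851 ± 947 CPM on plastic and 2028 CPM on gelatin at day 4 and at 1722 and 2079 CPM at day 7, and DESeq2 called 36 genes higher and 10 lower in this test.

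Whether the grooves matter for these genes was read from the 3 patterned libraries of day 7. Between unpatterned and patterned gelatin no gene passed the edgeR test, or 0.0% of 13942, while 1107 (7.94%) had an unadjusted p below 0.05 and DESeq2 called 7 genes higher and 52 lower on unpatterned gelatin. Among the 70 genes the smallest adjusted p was 0.614. Patterned gelatin shares its plastic libraries with the comparison described here, so the values are set side by side only. Car9 was at 19.4 ± 3.24 CPM on patterned gelatin (SD, n = 3) and 15.2 ± 2.72 CPM on unpatterned gelatin, Cxcl5 at 13.1 and 13.4 CPM, and Postn at 265 and 331 CPM. Ckmt2 was at 24.3 CPM on patterned and 8.99 CPM on unpatterned gelatin, and Actn2 at 343 and 189 CPM, neither of which passed. The patterned libraries spread the most of all C2C12 groups, with a biological coefficient of variation of 0.216. Patterned replicates 2 and 3 were also shallower, with 16762190 and 13110180 counts against 25265478 to 30011788 on unpatterned gelatin. They had 16666 and 16638 genes with a count, against 17552 to 17875.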

How the data were processed

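RNA-seq was performed on day 7 C2C12 cultures as NEBNext libraries read on an Illumina NextSeq 500. The authors deposited, per transcript and library, Kallisto estimated counts, TPM (a length-corrected share), length and effective length. Kallisto's version is not given in the sources used here. Per the labels the build was mm10. Of 88198 transcripts 86119 matched GENCODE M21 (GRCm38), and their estimated counts were summed per gene (30284 genes, 20419 with a count in the 6 libraries) and rounded to whole numbers. Unmatched transcripts held 0.704% to 0.772% of counts.

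The main test was edgeR's quasi-likelihood F test (version 4.0.16 in R 4.3.3) on the 6 libraries, after filterByExpr and TMM scaling, with Benjamini-Hochberg adjustment and a threshold of 0.05. Each SE was derived from the log2 fold change and its F statistic. Fits of the 12 libraries of days 4 and 7 tested the difference between days, and 6 libraries tested unpatterned against patterned gelatin. The separate day 4 fit was added after the data had been seen. Alternatives were DESeq2 1.42.0, RLE factors, no filter, a removed length trend (loess, span 0.5), limma 3.58.1 on log2(TPM + 1), other libraries in the fit, a replicate block and leaving out each library. Tables were made in Python 3.11.15 with pandas 2.3.3.

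P-values measure the spread between 3 cultures per group, and an exact permutation test of 3 against 3 cannot go below 0.1. No 2 replicates agreed within sampling noise, since chi-square per gene was 25.3 or more for each pair.

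The comparison, the 40 gene lists and the naming rule were chosen with earlier results of these data known. Genes were named by rule: the 12 highest and 12 lowest past the threshold whose mean log2 CPM was 1 or more and whose groups were apart, up to 5 members of each list by smallest adjusted p, and a fixed panel, of which 1 gene is not reported here. Tppp3, Rnaset2a, Steap4, Sprr1a, Tmem176a, Sdc1, Gm42936, Gm20775, Gm17131, Gm21962 and some list members with p above the threshold were named after their values were seen. Intervals and floors cover counting error only.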

Additional observations from a re-analysis of the deposited data

Results flagged for a closer look

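Gm20594 had an effect of unpatterned gelatin at day 7 that differed from the one at day 4, with a difference in log2 fold change of 2.55 ± 0.33 (SE, edgeR adjusted p = 0.0382, 12 libraries). Its log2 fold change was -2.28 at day 4 and 0.27 at day 7. It is a short predicted gene whose reads may be shared with other loci. It did not pass with the spread estimated over all 21 libraries.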

How the results depend on the processing

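At day 7, the 43 higher and 27 lower genes on unpatterned gelatin became 369 and 145 with all 21 C2C12 libraries in the fit, 19 and 3 with the 9 libraries of day 7, 226 and 190 with DESeq2, 126 and 118 with no filter on low counts, 103 and 56 with the length trend removed, 13 and 5 with limma on log2(TPM + 1), and 43 and 28 with RLE factors. With 1 library left out they ranged from 13 to 41 and from 4 to 27. Of the 70, 57 passed with all 21 libraries, 67 with DESeq2, 70 with the length trend removed and 17 with limma, and none changed direction in any alternative. The difference between days, with 1 gene higher and 0 lower, became 36 and 10 with DESeq2, 3 and 1 with no filter, 0 and 0 with all 21 libraries and 0 to 3 higher with a library left out. Unpatterned against patterned gelatin, with 0 and 0 genes, became 22 and 58 with all 21 libraries, 7 and 52 with DESeq2, 0 and 2 with no filter and 0 to 1 with a library left out. The causes of these changes were not tested. The fit of all 21 libraries holds the day 4 groups, with a smaller spread, and the patterned day 7 group, with the widest.

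Replicate numbers were not taken to pair the cultures, because the deviations of same-numbered plastic and unpatterned libraries correlated at 0.0797, -0.167 and -0.0531. With the replicate block 8 genes were higher and 1 lower at day 7, and 0 and 0 passed for the difference between days and for unpatterned against patterned gelatin. Genes with a few counts per library, such as Nos2, C3 and Steap4 on plastic, limit how precisely their folds are known.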
